A study of Saccharomyces cerevisiae with 54 samples.

Results

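The mitochondrial ribosomal protein genes were followed through the first hours of sporulation in the SS and MMTT strains of budding yeast. They were taken as the rows of the count table whose S288C standard name is MRPL, MRPS, MRP or RSM and a number, which gave 67 of 6571 genes. Of these, 28 encode proteins of the small subunit and 38 proteins of the large subunit. MRP8 carries such a name but is not a known ribosomal protein and was counted apart. RSM22, counted here with the small subunit by its name, encodes a methyltransferase-like protein that takes part in building that subunit.

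SS is the wildtype S288c diploid, and MMTT is the same diploid carrying the genotype MKT1(89G)/TAO3(4477C), the nucleotides of the SK1 strain at those positions. Both strains were grown in YPD and then in YPA, whose carbon source is acetate, before transfer to potassium acetate medium with amino acid supplements. RNA was sequenced at 9 time points with 3 libraries per strain and time: 0 h, then 30 min and 45 min after transfer, then 1 h 10 min, then 1 h 40 min, then 2 h 30 min, then 3 h 50 min, then 5 h 40 min and lastly 8 h 30 min. The 5 libraries that the authors set aside were not used in the values below, which leaves 25 SS and 24 MMTT libraries and 5 of the 18 groups with 2 libraries, and each group is named here by strain and time with replicates as the labels number them. The labels do not say whether replicates came from separate cultures, so p-values measure the spread between libraries, which may be technical.

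Mitochondria keep their own ribosomes, which make a handful of membrane subunits of the respiratory chain and the ATP synthase from mitochondrial DNA. Almost all of their proteins are encoded in the nucleus, made in the cytosol and imported. In yeast the mRNAs of these genes are known targets of Puf3, an RNA-binding protein of the Pumilio family that binds a short motif after the stop codon, and Mkt1, one of the proteins that differ between the strains, works with Pbp1 on messages of this kind. Growth on acetate needs respiration, and so does entry into meiosis.

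The Puf3 motif, TGTANATA with any base at N, was sought on the coding strand in the 200 bases after each stop codon of the R64 genome from RefSeq. It was found after 65 of the 67 genes (97.0%), against 843 of 5876 genes with such a window in the whole table (14.3%). In the small subunit 27 of 28 genes had it and in the large subunit 38 of 38, while RSM22 and MRP8 did not. The 65 genes held 79 sites, 13 of them had at least 2, and the first site lay a median of 51 bases after the stop codon, from 8 to 139. The variable base was A in 36 sites, T in 25, C in 17 and G in 1. With the further condition of a C 2 bases before the site, 52 of the 67 genes (77.6%) and 4.31% of all genes qualified. The sites of 11 genes that carry the results below are shown so that the shared motif and its varied surroundings can be read, each as 26 bases 5′ to 3′ on the coding strand with the motif in capitals.
MRPL37, chrII:741640-741665, plus strand: tggtatcctTGTAAATAaatatgtgt
MRPS17, chrXIII:636219-636244, minus strand: actacactcTGTAAATAtatacaact
MRPS12, chrXIV:694271-694296, minus strand: acaacctttTGTAAATAgcaatgacc
MRP51, chrXVI:327699-327724, plus strand: tcagagttcTGTAAATAaataaagaa
MRP7, chrXIV:621245-621270, minus strand: aagaatgccTGTAAATAttactattt
MRPL6, chrVIII:392537-392562, minus strand: ggaatacctTGTAAATAtcctatgaa
RSM10, chrIV:540464-540489, plus strand: tttcgtactTGTAAATAaaataggtg
MRPL32, chrIII:119208-119233, plus strand: acttaagccTGTATATAgaaacttaa
MRP35, chrXIV:397923-397948, minus strand: cggtcttcaTGTATATAaataagtat
MRPL23, chrXV:612537-612562, plus strand: ttcaatccaTGTATATAtttatctgt
MRP20, chrIV:1278501-1278526, plus strand: cctcacactTGTATATAcggagcaaa

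A match to these letters is a description of the sequence and no measure of binding. The other genes of mitochondrial translation carried the motif at high shares too: 13 of 13 other mitochondrial ribosomal protein genes with a window (those named outside the 4 families, such as IMG1 and MNP1), 13 of 13 genes of mitochondrial aminoacyl-tRNA synthetases and 7 of 9 of translation factors. So did 4 of 4 genes of inner membrane ribosome receptors, 10 of 14 of translational activators and 4 of 6 of ribosome assembly and ribosomal RNA modification. Of 33 nuclear genes of the respiratory chain and ATP synthase 4 (12.1%) had the motif, and of 137 genes of cytoplasmic ribosomal proteins 6 (4.38%). Promoters differed in another way. CCAAT, the core of the site of the respiratory activator Hap2/3/4/5, was present on either strand between 250 bases before and 50 after the start codon in 28 of the 67 genes (41.8%), near the 43.8% of all genes, and in 87.9% of the respiratory genes. AATTTT was present in 28 of the 67 (41.8%) and in 52.5% of all genes.

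Total counts of the 49 libraries lay between 1455002 and 5793502 (median 3641591), and the 67 genes had a median of 200 counts per gene and library and a lowest count of 12, so single values carry a visible counting error. All 67 passed the filters on low counts in each comparison. Middle meiotic and spore genes (NDT80, SPS4 and 5 others) had a mean log2 CPM, counts relative to the library total and scaled by TMM factors, of 3.17 in SS and 3.78 in MMTT at 0 h, and of 3.73 in SS and 9.84 in MMTT at 8 h 30 min, where all 7 were higher in MMTT. In bulk RNA, fewer cells of a kind and less RNA per cell cannot be told apart.

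CPM per kb of coding sequence gave the level of each gene over the 49 libraries. The median was 111 in the small subunit and 87.2 in the large subunit, against 56.2 over all genes, 876 for the respiratory genes and 395.0 for the cytoplasmic ribosomal proteins. In the small subunit MRPS12, a protein of the decoding centre, and RSM10 were highest, with 514 and 396, and RSM22 and MRP13 lowest, with 22.8 and 29.9. In the large subunit MRPL51 and MRPL33 were highest, with 262.5 and 204, and MRPL3 and MRPL11 lowest, with 34.9 and 38.0. MRPL51 overlaps a gene on the opposite strand, as does MRP4, and MRPL19 overlaps one on its own strand, so their counts are uncertain. MRP8 stood above them all with 887.

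The genes moved together to a limited degree. Across the 49 libraries the median pairwise correlation of log2 CPM was 0.28 over the 67 genes, 0.24 within the small subunit and 0.30 within the large subunit, against 0.42 among the respiratory genes, 0.78 among the cytoplasmic ribosomal proteins and near 0 among all genes. These are descriptions, since the pairs share libraries, depth and coding length effects. Against the mean of the other 66 genes the median correlation was 0.60, with 43 genes over 0.5. MRPS12 (0.90) and MRP17 of the small subunit and MRPL6 (0.87) and MRP35 (0.86) of the large subunit followed the mean most closely. RSM22 (-0.45), RSM23 (-0.22), MRP20 (-0.13) and MRPL4 (-0.13) followed it least, and 8 genes in all were below 0.

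By group means, the share of all counts that fell on these genes was highest at 0 h in both strains. In SS the small subunit took 0.245% ± 0.0049 (SD, n = 2) of counts at 0 h, 0.195% at 30 min, a low of 0.179% at 2 h 30 min and still 0.209% at 8 h 30 min. The large subunit went from 0.223% to 0.186%, 0.171% and 0.217% at the same times. In MMTT the small subunit took 0.283% ± 0.0246 (SD, n = 3) at 0 h, 0.272% at 30 min, a low of 0.210% at 3 h 50 min and still 0.219% at 8 h 30 min, and the large subunit 0.274%, 0.2605%, 0.207% and 0.223%. The 2 MMTT libraries at 45 min stood apart, with 0.203% and 0.335% for the small subunit, the second of them above each MMTT library at 0 h. The libraries of the 2 strains did not overlap at 0 h, where the lowest MMTT value for the small subunit was 0.259% and the highest SS value 0.248%. At 8 h 30 min they did overlap, with 0.203% to 0.217% in SS and 0.215% to 0.221% in MMTT.

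**Figure D1:**
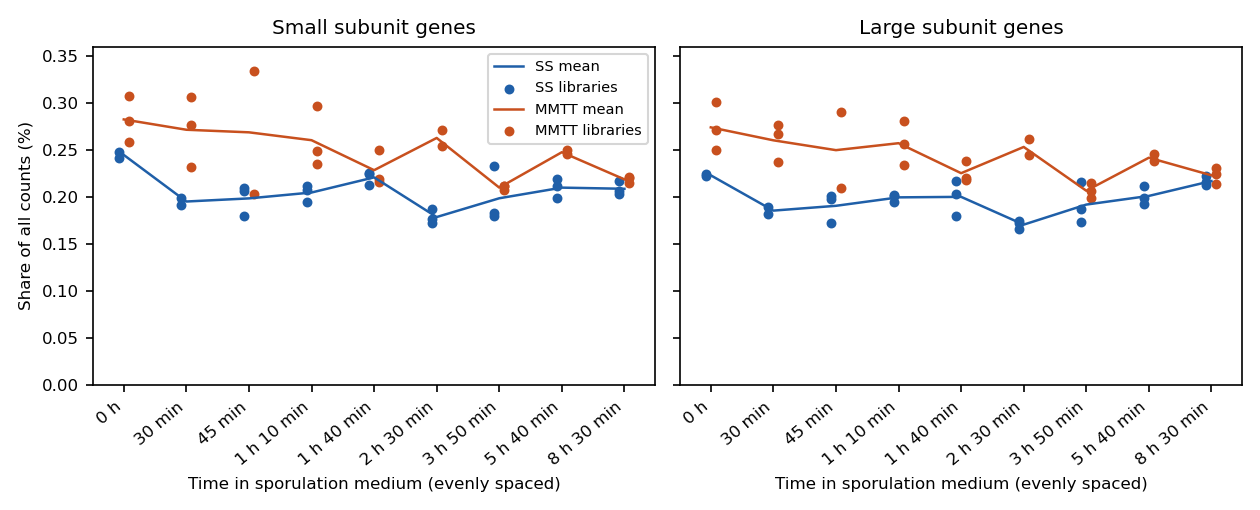
Share of all counts, in percent, taken by the genes of the small and large subunit in each library at the 9 time points, with points for libraries and lines for the mean of SS and of MMTT. The means of both subunits are highest at 0 h, where the MMTT libraries (0.259% to 0.308% for the small subunit) lie above the SS libraries (0.2415% to 0.248%).

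How the genes changed after transfer was asked first within SS, each time point against 0 h, with a gene counted at an adjusted p under 0.05 in edgeR's quasi-likelihood test over all genes. After transfer, lower calls outnumbered higher calls at each of the 8 time points and in both subunits. The median log2 change of the small subunit lay between -0.38 and -0.15, that of the large subunit between -0.31 and -0.07, and that of all genes tested between 0.00 and 0.07. The changes were modest, since none of the 67 passed an absolute log2 fold change of 2 in SS.

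At 30 min 0 genes were higher and 11 (16.4%) lower in SS, 6 of the small subunit, 4 of the large subunit and MRP8, where 12.3% of all 6350 genes tested were higher and 10.9% lower. At 45 min 1 was higher and 16 lower, against 16.8% and 17.1% of all genes. At 1 h 10 min the counts were 1 and 13 (all genes 18% and 18.1%), and at 1 h 40 min 0 and 13 (all genes 15.2% and 15.4%). The share of lower calls, 19.4% at both of these times, was not far from that of all genes, while higher calls were 0 or 1. The largest count was at 2 h 30 min, with 1 higher and 20 (29.9%) lower, 10 of them in the small subunit and 9 in the large subunit, against 17.9% and 17.1% of all genes. At 3 h 50 min 2 were higher and 15 lower (all genes 20.3% and 17.7%), at 5 h 40 min 2 and 14 (all genes 20.6% and 17.1%), and at 8 h 30 min 2 and 12 (all genes 22.2% and 20.1%), so that the share of lower calls at the last time (17.9%) was under that of all genes. Where no gene was higher, 1 gene at 30 min and 2 genes at 1 h 40 min were so at an unadjusted p under 0.05 in edgeR, and 0 in DESeq2 at an adjusted p. The 2 SS libraries at 0 h are shared by these 8 comparisons, so the counts are not independent of each other. Without SS 0 h replicate 2 the number passing was 4 at 30 min and 11 at 45 min, then 6 genes at 1 h 40 min, 11 genes at 3 h 50 min and 9 genes at 5 h 40 min. Without replicate 3 it was 5 at 30 min and 9 at 45 min, then 9 genes at 1 h 10 min, 5 genes at 1 h 40 min, 12 genes at 2 h 30 min and 8 genes at 5 h 40 min. At 30 min it was 4 and 3 without SS 30 min replicates 2 and 3, and at 45 min 10 without SS 45 min replicate 1.

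In MMTT, too, lower calls outnumbered higher calls at each of the 8 times, and they were most at 3 h 50 min and 8 h 30 min. The median log2 change lay between -0.49 and -0.23 in the small subunit and between -0.53 and -0.17 in the large subunit, both lowest at 3 h 50 min. At that time 65 of 67 genes were below their level at 0 h, and 33 (49.3%) passed the test as lower, 12 of the small and 20 of the large subunit and MRP8, with 0 higher, where 18.1% of all 6419 genes tested were higher and 18.7% lower. At 8 h 30 min 28 (41.8%) were lower and 2 higher, against 21.9% and 23.5%.

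The other times in MMTT had fewer calls. At 30 min 1 gene was higher and 18 lower, against 18.6% and 18.9% of all genes, and at 45 min 0 and 16, against 16.2% and 13.8%. At 1 h 10 min the counts were 1 and 16 (all genes 16% and 16.8%), at 1 h 40 min 0 and 20 (all genes 15.4% and 16%), at 2 h 30 min 2 and 17 (all genes 19.5% and 17.6%), and at 5 h 40 min 0 and 17 (all genes 17.1% and 17%). Lower calls were here a larger share of these genes (23.9% to 29.9%) than of all genes at each of these times, and higher calls a smaller one. Of the 4 times with no higher call in edgeR, 5 h 40 min had 1 gene higher at an unadjusted p under 0.05 and the others 0, and DESeq2 called 0 at each. The number passing fell to 10 at 1 h 10 min without MMTT 0 h replicate 3, to 11 and 12 at 2 h 30 min without either of its libraries, and to 11 at 5 h 40 min without MMTT 5 h 40 min replicate 1. Over the 8 times, 38 of the 67 genes (56.7%) were lower at least once in MMTT, where 35.7% of all genes were, and 24 (35.8%) in SS, where 29.3% of all genes were.

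**Figure D2:**
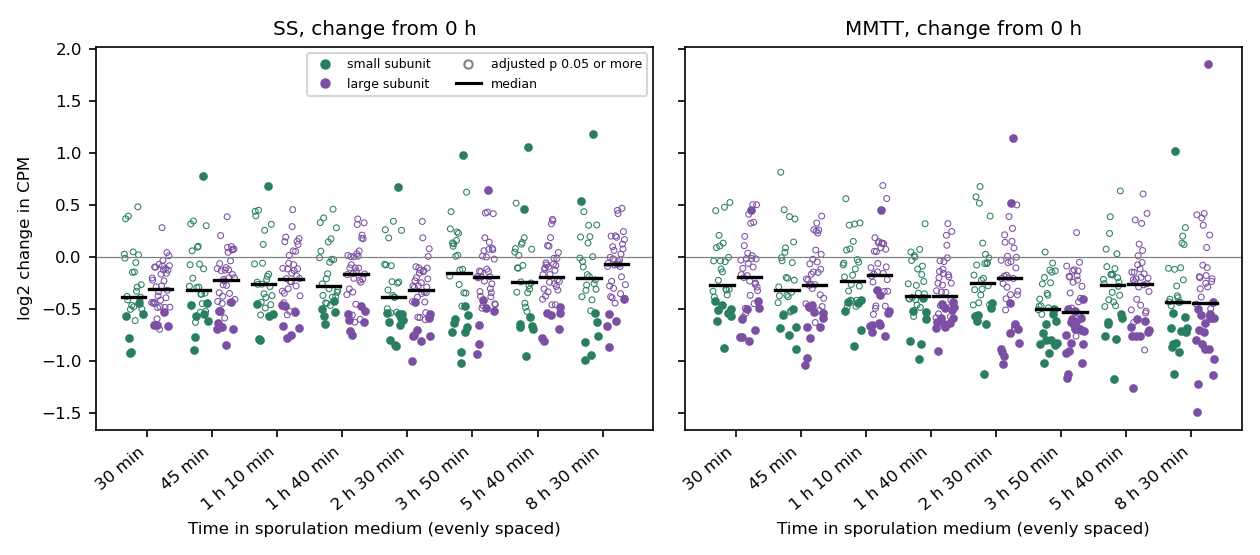
Log2 change from 0 h of each gene at the 8 later time points in SS and MMTT, small and large subunit apart, with points for genes and a bar for the median. The medians lie below 0 at each time in both strains and reach -0.49 and -0.53 in MMTT at 3 h 50 min.

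Single genes of the small subunit show the size of the fall. Most genes named here and below were chosen by size of change among passing genes without overlap between groups. Lack of overlap is therefore no further evidence for them. MRPS12 had 292 and 306 CPM in the SS libraries at 0 h and 178 and 143 CPM at 30 min, a log2 change of -0.92 ± 0.21 (SE, adjusted p = 0.0026, or 0.056 without SS 30 min replicate 3). The 0 h libraries lay above all later SS libraries of this gene, and it was lower at all 8 times in SS. MRP51, a small subunit protein linked by yeast genetics to the leaders of mitochondrial messages, had 160 and 178 CPM at 0 h and 84.7, 82.7 and 87.3 CPM at 8 h 30 min in SS, a log2 change of -0.98 ± 0.12 (adjusted p = 9.2e-07). It was lower at all 8 times in both strains, which no other of the 67 was. Within a strain those 8 calls share the 0 h libraries and are not independent. MRPS9, of the uS9 family, had 127, 132 and 141 CPM at 0 h and 57.4 and 63.2 CPM at 2 h 30 min in MMTT (-1.13 ± 0.16, adjusted p = 1.9e-05), with no overlap between the groups. At 30 min it had 78.4, 72.8 and 66.8 CPM there (-0.87 ± 0.14, adjusted p = 6.1e-05).

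RSM10, of the uS10 family, fell in SS later than the others named here. It had 396 and 355 CPM at 0 h, 396 and 336 CPM at 30 min, and 183, 200 and 246 CPM at 2 h 30 min, where its log2 change was -0.85 ± 0.17 (adjusted p = 0.00054). In the large subunit MRP20, of the uL23 family at the exit of the peptide tunnel, had 198 and 254 CPM at 0 h in SS and 131, 108 and 104 CPM at 2 h 30 min (-0.99 ± 0.17, adjusted p = 0.00011). For both genes the 2 h 30 min libraries lay wholly under those of 0 h, as the choice of named genes required.

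Single genes of the large subunit fell in MMTT at 8 h 30 min. MRP7, of the bL27 family near the peptidyl transferase centre, had 190, 237 and 263 CPM at 0 h and 75.1, 85.2 and 84.6 CPM at 8 h 30 min, a log2 change of -1.49 ± 0.16 (adjusted p = 1.7e-07). MRPL1, of the uL1 family, had 70.8, 78.4 and 90.1 CPM at 0 h and 31.6, 34.1 and 36.9 CPM at 8 h 30 min (-1.22 ± 0.21, adjusted p = 6.7e-05). Both were lower at all 8 times in MMTT, as were 9 others: MRP17, MRP20, MRP51, MRPL8, MRPL28, MRPL40, MRPS9, RSM7 and RSM28. The MMTT libraries at 0 h are shared by these 8 comparisons, so the calls of a gene are not independent of each other. The share of all genes lower at all 8 times is not given here. MRPL28 had 72.9, 74.3 and 56.0 CPM at 0 h and 37.9, 32.8 and 44.4 CPM at 30 min in MMTT (-0.81 ± 0.15, adjusted p = 0.0003). At 2 h 30 min MRPL1 had 44.2 and 33.4 CPM (-1.03 ± 0.24, adjusted p = 0.0023), where leaving out MMTT 2 h 30 min replicate 2 ended the call.

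Few genes went the other way. RSM22 was higher than at 0 h at 6 of 8 times in SS. It had 30.2 and 25.5 CPM at 0 h, 44.5, 46.0 and 44.7 CPM at 2 h 30 min (0.68 ± 0.18, adjusted p = 0.0061) and 69.5, 61.6 and 57.9 CPM at 8 h 30 min (1.18 ± 0.18, adjusted p = 2.1e-05), with no overlap, while in MMTT it had 38.7, 41.3 and 45.0 CPM at 0 h and 48.5, 43.2 and 45.3 CPM at 8 h 30 min and was higher at 0 of 8 times. RSM22 is also 1 of the 2 genes of the set without the Puf3 motif. The other, MRP8, was lower than at 0 h at 7 of 8 times in SS, and a link to the motif was not tested. MRP13, a small subunit protein without a bacterial counterpart, had 17.4 and 26.8 CPM at 0 h and 26.9, 35.2 and 33.4 CPM at 8 h 30 min in SS (0.54 ± 0.21, adjusted p = 0.039), groups that nearly touched. Its call was lost with all 54 libraries (adjusted p = 0.06) and without SS 0 h replicate 2 (log2 change 0.27) or SS 8 h 30 min replicate 2 or 3, and that of RSM22 at 2 h 30 min with all 54 libraries (adjusted p = 0.051) and without SS 0 h replicate 3.

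Both of these genes lie beside a cytoplasmic ribosomal protein gene, which was looked up after their values were seen. RPS27A faces RSM22 from the opposite strand, 243 bases away, and RPL11B ends 240 bases before MRP13 on the same strand. In SS at 8 h 30 min RPS27A was higher than at 0 h by 1.73 on the log2 scale (adjusted p = 2e-05) and RPL11B by 1.82 (adjusted p = 5.3e-08), and in MMTT by 0.55 and 1.06. The part of reads from these neighbours in the counts of RSM22 and MRP13 was not tested, and whether counting used the strand is not given in the sources used here.

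In MMTT the genes higher than at 0 h were MRPL33, at 3 times, MRPL37, at 2, and MRPS17, at 1. MRPL33, of the uL30 family, had 36.0, 40.6 and 48.8 CPM at 0 h and 59.0, 57.8 and 54.6 CPM at 30 min (0.46 ± 0.16, adjusted p = 0.03). It is a short gene, and with the coding length trend of each library removed, as described below, its log2 change was -0.02 at 30 min and -0.04 at 2 h 30 min, in place of 0.46 and 0.52. Leaving out MMTT 0 h replicate 1 or 2 ended both calls, as did leaving out replicate 1 or 2 of the time compared. MRP8 fell in SS, from 1097 and 958.7 CPM at 0 h to 629.6, 442.6 and 489.4 CPM at 8 h 30 min (-0.98 ± 0.21, adjusted p = 0.00081).

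The 2 strains were then compared at each time point. Before transfer, at 0 h, MMTT had more of these mRNAs than SS. The median log2 difference was 0.38 in the small subunit and 0.32 in the large subunit, 54 of the 67 genes were above 0, and 15 (22.4%) passed as higher, 7 of the small and 8 of the large subunit, where 7.16% of all 6031 genes tested were higher and 7.63% lower. RSM10 and MRP8 were lower. The 14 other mitochondrial ribosomal protein genes had a median of 0.46 with 2 higher, the respiratory genes a median of -0.17 with 1 higher and 5 lower, and the cytoplasmic ribosomal proteins a median of 0.17 with 4 each way. The counts at 0 h rested on few libraries: without SS 0 h replicate 2 there were 3 genes passing, without SS 0 h replicate 3 there were 8, and without MMTT 0 h replicate 2 there were 11, while the median over the 67 genes, 0.33, stayed between 0.26 and 0.37 whichever library was left out.

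The differences at 0 h were clear in single genes. MRPL32, of the bL32 family, whose maturation by a mitochondrial protease is a known step of ribosome assembly in yeast, had 25.6 and 22.6 CPM in SS and 57.5, 68.2 and 63.0 CPM in MMTT at 0 h, a log2 difference of 1.38 ± 0.34 (SE, adjusted p = 0.0054). MRP35, of the bL35 family, had 25.9 and 25.2 CPM in SS and 53.0, 49.4 and 57.9 CPM in MMTT (1.06 ± 0.27, adjusted p = 0.0076). In both genes each MMTT library lay far above the SS libraries, and lack of overlap was a condition for naming them. RSM10 went the other way, with 396 and 355 CPM in SS and 177, 206 and 200 CPM in MMTT (-0.95 ± 0.23, adjusted p = 0.0047). MRP8 was lower too, with 1097 and 958.7 CPM in SS and 661.4, 796.5 and 656.6 CPM in MMTT (-0.54 ± 0.19), just inside the threshold and outside it under 7 of 11 other settings, the leaving out of each of the 5 libraries among them. Without SS 0 h replicate 2 none of MRPL32, MRP35 and RSM10 passed, though their log2 differences were then 1.46, 1.07 and -0.89, and without SS 0 h replicate 3 neither MRPL32 nor MRP35 did (adjusted p = 0.1 for each).

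Higher calls outnumbered lower calls at each of the 9 times. The share of higher calls was near that of all genes at 1 h 40 min and 3 h 50 min, and under it at 8 h 30 min. At 30 min the medians were 0.40 in the small and 0.42 in the large subunit, and 30 genes (44.8%) were higher and 3 lower, against 18.1% and 21.8% of all genes. At 45 min 14 were higher and 2 lower (all genes 13.9% and 12%), at 1 h 10 min 21 and 2 (all genes 18.4% and 18%), and at 1 h 40 min 10 and 2 (all genes 13% and 9.85%). At 2 h 30 min 26 (38.8%) were higher and 0 lower, with medians of 0.43 and 0.33, against 15.7% and 15.8%, with 1 lower at an unadjusted p under 0.05 in edgeR and 0 in DESeq2. By 3 h 50 min the medians were -0.04 and -0.05 and the counts 6 higher and 3 lower (all genes 9.27% and 10.7%). At 5 h 40 min 11 were higher and 1 lower (all genes 11.6% and 11.9%), and at 8 h 30 min 11 and 3 (all genes 20.3% and 21.9%), with medians of 0.07 and -0.02. Over the 9 times, 42 of the 67 genes (62.7%) were higher in MMTT at least once, against 44.8% of all genes, and 9 (13.4%) lower at least once, against 46.3%.

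Several of these counts turned on single libraries. At 45 min, where MMTT had 2 libraries that stood apart from each other, 4 genes passed without replicate 1 and 30 without replicate 3, in place of 16, and 10 without SS 45 min replicate 1. At 30 min 12 and 16 passed without SS 30 min replicates 3 and 2 and 19 without MMTT 30 min replicate 2, in place of 33. At 1 h 10 min 13 passed without MMTT replicate 2, in place of 23. At 1 h 40 min 5 and 7 passed without MMTT replicates 1 and 2 and 5 without SS replicate 3, in place of 12. At 2 h 30 min 7 passed without MMTT replicate 2 and 17 without SS replicate 2, in place of 26. At 3 h 50 min 5 passed without replicate 1 of either strain, in place of 9. At 5 h 40 min 7 and 3 passed without MMTT replicates 1 and 2 and 7 without SS replicate 3, in place of 12. At 8 h 30 min 9 passed without MMTT replicate 3 or without SS replicate 1, in place of 14.

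**Figure D3:**
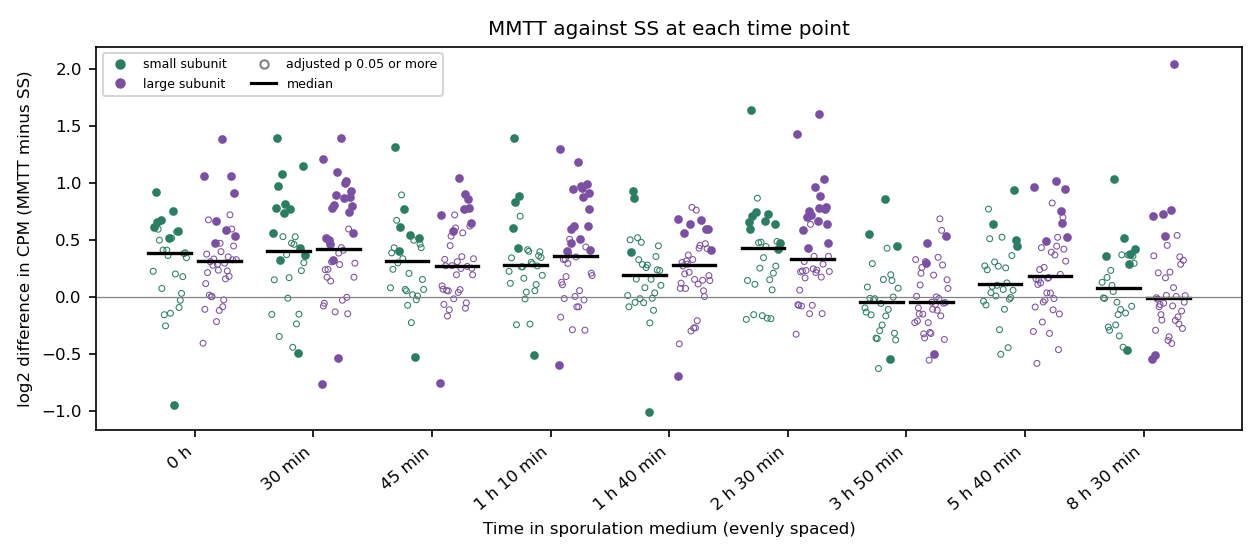
Log2 difference between MMTT and SS of each gene at the 9 time points, small and large subunit apart, with points for genes and a bar for the median. The medians are 0.38 and 0.32 at 0 h, stay above 0 to 2 h 30 min and lie at -0.04 and -0.05 at 3 h 50 min.

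Coding length moved with the difference between the strains, and these genes are short. Their median coding length was 699 bases, 769 in the small and 616 in the large subunit, against 1185 over all genes. Across genes, which are not independent replicates, the rank correlation of the log2 difference with coding length at 30 min was -0.46 among all other genes and -0.63 among the 67, and at 2 h 30 min -0.45 and -0.51, so shorter genes had higher values in MMTT whatever they encode. At 0 h it was -0.17 and -0.12, and at 3 h 50 min 0.01 and 0.08. Of the 19 genes of this set of up to 450 bases the median difference at 30 min was 0.78, and that of other genes of the same length was 0.60. For the 22 genes of 600 to 900 bases it was 0.27, against 0.21. At 0 h the same classes had 0.38 against 0.22 and 0.24 against 0.01. At 0 h 50 of the 67 genes lay above the median of other genes of their length class, and at 30 min 41.

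Each library had its own trend with length, with rank correlations from -0.481 to 0.35 in MMTT, where 16 of 24 were below 0, and from -0.282 to 0.412 in SS, where 3 of 25 were. With that trend removed from each library, an alternative chosen after the data were seen, the median difference over the 67 genes was 0.25 at 0 h, with 15 higher and 2 lower (all genes 9.03% and 9.13%). At 30 min it was 0.15, with 14 higher in place of 30 and 5 lower in place of 3 (all genes 17.4% and 16%), and at 2 h 30 min 0.20 in place of 0.35, with 16 higher in place of 26 and 2 lower in place of 0 (all genes 15.5% and 10.6%). The falls within a strain were not reduced. With the trend removed the medians lay between -0.39 and -0.23 in SS and between -0.54 and -0.34 in MMTT, and the number passing in MMTT, each of them lower, was 35 at 30 min (20.1% of all genes), in place of 19, and 41 at 3 h 50 min (23.5% of all genes), in place of 33. What sets the trend with length was not tested.

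MRPL23, of the uL13 family, was higher in MMTT at 9 of 9 times, the sole gene of the 67 for which this held. It had 67.1 and 71.9 CPM in SS and 107, 116 and 109 CPM in MMTT at 0 h, and 87.2, 57.1 and 73.0 CPM in SS and 104, 106 and 104 CPM in MMTT at 8 h 30 min. Its log2 difference lay between 0.47 and 0.80. MRP35 was higher at 8 times (0.33 to 1.43 over the 9 times) and MRP17, of the bS6 family, at 7. MRPL7, MRPL32, MRPL38, MRPL49 and MRPL50 were higher at 6. The share of all genes called at so many times is not given here. MRPL23 was not among the named values re-fitted under other settings. It has 492 bases, and other genes of 450 to 600 bases had a median difference of 0.39 at 30 min.

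At 30 min MRPL32 had 32.5 and 26.9 CPM in SS and 79.1, 94.4 and 61.8 CPM in MMTT (1.40 ± 0.33, adjusted p = 0.0013). MRP2, of the uS14 family, had 41.1 and 35.4 CPM in SS and 118, 125 and 59.0 CPM in MMTT at 30 min (1.39 ± 0.40, adjusted p = 0.0065, or 0.074 without SS 30 min replicate 3), and 29.9, 30.3 and 45.6 CPM in SS and 102 and 117 CPM in MMTT at 2 h 30 min (1.64 ± 0.38, adjusted p = 0.0014). The MMTT libraries of MRP2 varied widely among themselves at some times, with 213 and 54.4 CPM at 45 min. Genes lower in MMTT were few. MRP20 was lower at 5 times, with 180 and 158 CPM in SS and 96.2, 102 and 99.5 CPM in MMTT at 30 min (-0.77 ± 0.15, adjusted p = 0.0002). RSM22 was lower at 4 times and higher at 1, 0 h. MRPL28 had 61.7 and 50.1 CPM in SS and 37.9, 32.8 and 44.4 CPM in MMTT at 30 min (-0.54 ± 0.18, adjusted p = 0.019), a call lost without SS 30 min replicate 2 or MMTT 30 min replicate 1 or 2.

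At 8 h 30 min the median difference was near 0, and a pair of genes stood far above it. MRPL37, a protein of the mitochondrial large subunit, had 39.2, 40.6 and 36.2 CPM in SS and 193, 143 and 142 CPM in MMTT, a difference of 2.04 ± 0.27 on the log2 scale or 4.11-fold (adjusted p = 8.6e-08). MRPS17, of the uS17 family, had 120, 92.0 and 110 CPM in SS and 246, 177 and 236 CPM in MMTT (1.03 ± 0.22, adjusted p = 0.00028). In both genes the lowest MMTT library lay above the highest SS library, as the choice of named genes required. At 2 h 30 min MRPL37 had 27.2, 34.7 and 33.3 CPM in SS and 67.4 and 124 CPM in MMTT (1.602 ± 0.29, adjusted p = 9e-05). MRPL37 passed as higher in MMTT at 5 of 9 times, and its median log2 difference over the 9 times was 0.87.

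Within MMTT, MRPL37 stood at 47.0, 39.9 and 45.4 CPM at 0 h and was higher by 1.14 ± 0.34 at 2 h 30 min (adjusted p = 0.012) and by 1.85 ± 0.31 at 8 h 30 min (adjusted p = 5.3e-05) on the log2 scale. Leaving out MMTT 2 h 30 min replicate 2, the library of the 2 with the higher level of middle meiotic genes (mean log2 CPM 7.97 against 5.42), took the change at 2 h 30 min to 0.62 and ended its call. MRPS17 had 94.3, 100.2 and 131 CPM at 0 h in MMTT (1.02 ± 0.26 at 8 h 30 min, adjusted p = 0.0028), and in SS it fell at 30 min from 134 and 125 to 65.8 and 73.8 CPM (-0.91 ± 0.23, adjusted p = 0.0064, or 0.073 without SS 30 min replicate 2). The nearest genes to MRPL37, looked up after its value was seen, had log2 differences between the strains at 8 h 30 min of -0.49 (REI1, adjusted p = 0.037) and 0.13 (SDH8, adjusted p = 0.41). MRP7 and MRP20 were lower in MMTT at 8 h 30 min, MRP7 with 124, 110 and 115 CPM in SS and 75.1, 85.2 and 84.6 CPM in MMTT (-0.51 ± 0.16, adjusted p = 0.0076, or 0.057 without MMTT 8 h 30 min replicate 1) and MRP20 by a log2 difference of -0.54 ± 0.14 (adjusted p = 0.0016).

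**Figure D4:**
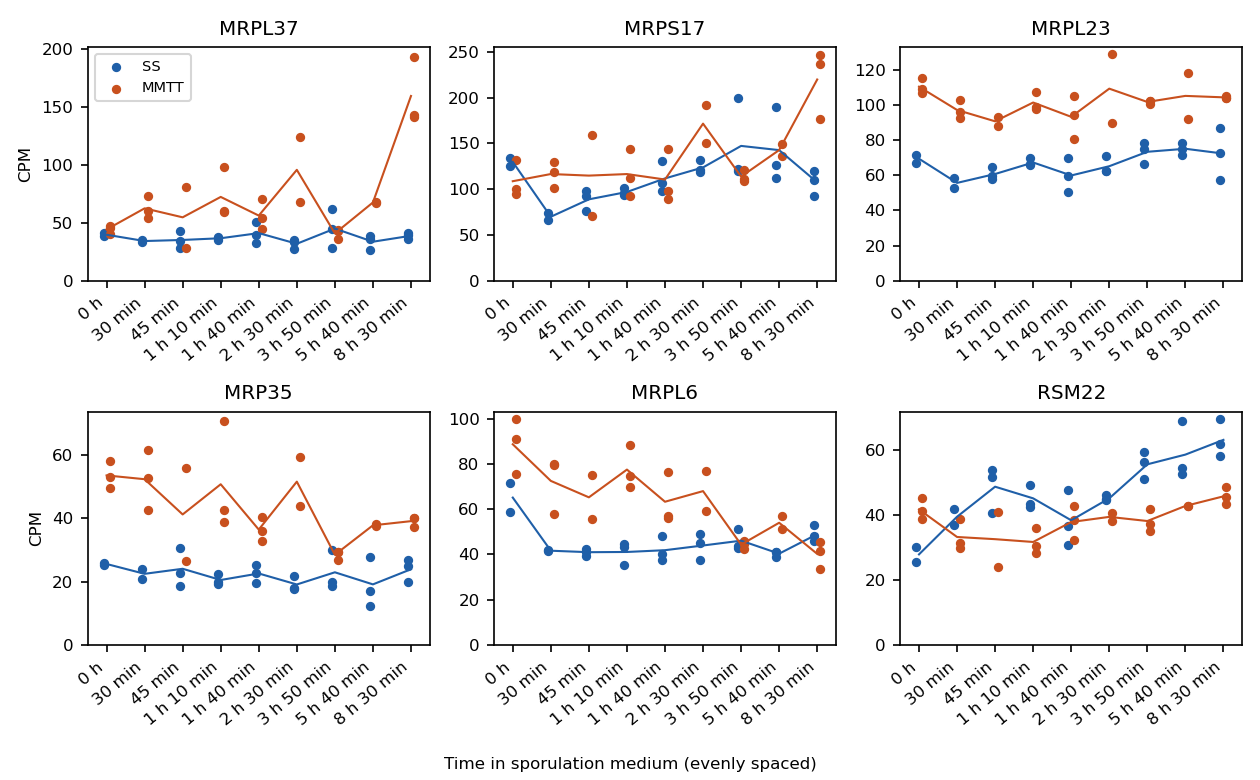
CPM in each library at the 9 time points in SS and MMTT for MRPL37, MRPS17, MRPL23, MRP35, MRPL6 and RSM22. MRPL37 is higher in MMTT at 5 of 9 times, with the largest difference at 8 h 30 min (193, 143 and 142 CPM in MMTT). MRPL23 is higher in MMTT throughout, and RSM22 is higher over time in SS.

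Whether a change from 0 h differed between the strains was tested in the same fit, as the difference of the 2 changes. Few of the 67 genes passed before the last time point. The numbers were 2 at 30 min (8.69% of all genes), 1 at 45 min (7.69% of all), 2 at 1 h 10 min (10.5% of all), 1 at 1 h 40 min (5.55% of all), 1 at 2 h 30 min (4.76% of all), 1 at 3 h 50 min (2.45% of all) and 1 at 5 h 40 min (4.84% of all), shares under those of all genes. The genes were RSM22 at 5 of these times, MRP4 at 2, MRPL7 at 1 and MRPL37 at 1. The tests of all times share the 0 h libraries, so repeated calls of a gene are not independent. At 8 h 30 min 13 passed, 10 with a lower and 3 with a higher value in MMTT, against 21.6% of all genes. The 3 were MRPL37 (1.88), MRPS17 (1.29) and MRP8 (0.79), and the 10 included RSM22 (-1.04), MRP4 (-0.97), MRP13 (-0.94) and MRPL6 (-0.72). Without SS 0 h replicate 2 the 13 became 4, without SS 8 h 30 min replicate 2 they became 5, and without MMTT 0 h replicate 3 they became 7, and without MMTT 45 min replicate 3 the 1 gene at 45 min became 12. At the other times before 8 h 30 min between 0 and 3 genes passed whichever library was left out.

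Over all 8 time terms together, the strain by time interaction passed an adjusted p under 0.001 for 2 of the 67 genes, against 14.8% of all genes, MRPL6 (adjusted p = 0.00041) and MRPL37 (adjusted p = 0.00043). RSM22 (adjusted p = 0.0054), MRPL38 (adjusted p = 0.0059) and MRP8 (adjusted p = 0.0071) came next. MRPL6, of the uL6 family, had 71.4 and 58.8 CPM in SS and 90.8, 75.4 and 99.8 CPM in MMTT at 0 h. At 1 h 10 min it had 35.6, 44.6 and 43.1 CPM in SS and 69.7, 88.3 and 74.4 CPM in MMTT, and at 8 h 30 min 48.1, 46.0 and 52.8 CPM in SS and 33.8, 41.7 and 45.3 CPM in MMTT. The MMTT libraries were thus above those of SS at the first times and below them at the last. MRPL38, of the uL14 family, had 49.5, 49.1 and 43.4 CPM in SS and 45.7, 37.4 and 39.98 CPM in MMTT at 8 h 30 min, against 48.2 and 53.0 CPM in SS and 67.3, 82.2 and 78.4 CPM in MMTT at 0 h. Both calls were close to the threshold: single libraries left out gave between 0 and 5 genes, and without MMTT 8 h 30 min replicate 1 the adjusted p was 0.0036 for MRPL6 and 0.0021 for MRPL37. By an absolute log2 fold change over 2 with an adjusted p under 0.05 in any of the 25 comparisons, 1 of the 67 genes qualified, MRPL37, against 17.6% of all genes.

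Other genes of mitochondrial translation and of respiration, from lists written beside this set, moved in more than 1 direction. The 14 other mitochondrial ribosomal protein genes went the same way, with a median change of -0.39 in SS at 30 min. In MMTT at 3 h 50 min their median was -0.63, and 10 of 14 were lower (all genes 18.7%). Between the strains at 30 min their median was 0.54, and 7 were higher (all genes 18.1%). The 13 mitochondrial aminoacyl-tRNA synthetase genes, which carry the same motif, had a median of 0.35 in SS at 2 h 30 min, with 5 higher and 1 lower, and of -0.13 in MMTT, with 2 higher and 3 lower. The 9 translation factors had medians of -0.17 and 0.08 there. Within MMTT the respiratory genes had a median change from 0 h of 0.61 at 2 h 30 min, and 18 of 33 passed as higher (all genes 19.5%). Within SS the same comparison gave 1 of them as higher and 2 as lower (all genes 17.9% and 17.1%). The cytoplasmic ribosomal proteins, by contrast, were higher than at 0 h in both strains at 8 h 30 min. In SS 130 of 137 were higher (median 1.73, all genes 22.2%), and in MMTT 56 of 137 (median 0.48, all genes 23.5%). Between the strains 125 were lower in MMTT at that time (median -1.155), where 21.9% of all genes were lower.

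Of the regulators read beside these genes, PUF3 itself was lower in MMTT at 1 of 9 times, 30 min, with 76.7 and 82.5 CPM in SS and 43.8, 45.4 and 35.3 CPM in MMTT (-0.95, adjusted p = 0.0077). With the length trend removed the difference of PUF3 was -0.45 (adjusted p = 0.34), and without SS 30 min replicate 3 its adjusted p was 0.06. HAP4, the regulated subunit of the respiratory activator, was also lower at that time (-0.82, adjusted p = 0.017, and 0.069 to 0.1 without MMTT replicate 1 or 2 or either SS library) and at no other. HAP2 and HAP3, which encode other subunits of this activator, were each higher at 1 time, and HAP5, for a further subunit, and PBP1 were each lower at 1. SFP1, an activator of cytoplasmic ribosomal protein genes, was lower at 6 times. MKT1 had log2 differences between -0.45 and 0.11 and was lower at 1 time. The 724 other genes with the motif, outside the lists of mitochondrial translation, had a median log2 change of -0.08 in MMTT at 3 h 50 min. That of the 67 genes of this set was -0.50. Of the 724, 122 were higher and 167 lower, where 18.1% of all genes were higher and 18.7% lower.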

How the data were processed

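The authors filtered out ribosomal RNA, mapped what was left to S288c with STAR and deposited whole-number counts per gene, not normalized, made from strand-specific libraries. Versions, annotation and the strand setting of counting are not given in the sources used here. The 67 genes and the other lists were chosen with earlier results of these data known. The 49 libraries kept by the authors were used. Genes with at least 0.5 CPM (within a strain) or 3 CPM (between strains) in at least 3 libraries were fitted in edgeR 4.0.16 (R 4.3.3) with TMM factors, 1 mean per group, and its robust quasi-likelihood test, Benjamini-Hochberg adjusted across the genes fitted, at 0.05, or 0.001 for the 8 interaction terms. The counts were tested as deposited by the authors. A standard error is the absolute log2 fold change over the square root of F and is approximate. A group with 2 libraries takes its spread from the whole fit. Scripts were tested on simulated data.

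Genes named in the text were the 2 highest and 2 lowest passing genes without overlap between groups in each strain against 0 h at 30 min, at 2 h 30 min and also 8 h 30 min, and between strains at those times and 0 h, the 5 with the smallest interaction p, the extremes of level and of correlation with the mean in each subunit, MRP8 and RSM22. Counts of calls name others. MRPL23 was named for its count. Whether equal replicate numbers mark a shared culture is not given by the labels. The mean correlation of deviations from group means was -0.018 for equal and 0.011 for unequal numbers in SS across times. It was 0.041 and -0.021 in MMTT, and -0.068 and 0.035 across strains at the same time. With 2 or 3 libraries per group, these values cannot decide the question. No 2 replicates agreed within sampling noise (lowest chi-square per degree of freedom 4.61 over 54 pairs). Coding lengths, sites and names come from RefSeq R64, in which 5906 of the 6571 genes had an entry. Alternatives were DESeq2 1.42.0, RLE factors, no filter, all 54 libraries, a replicate block, each library left out and, added after the data were seen, a lowess trend on log2 coding length removed from each library. Python 3.11.15 was used for the rest.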

Additional observations from a re-analysis of the deposited data

Results flagged for a closer look

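These genes had a change from 0 h that differed between the strains by a test of the difference itself in edgeR, given as the log2 change in MMTT minus that in SS. RSM22 differed at 6 of 8 times, by -0.82 at 30 min, -1.11 at 45 min, -1.09 by 1 h 10 min, -1.12 by 3 h 50 min, -1.03 by 5 h 40 min and -1.04 by 8 h 30 min. In SS it passed as higher than at 0 h at 6 times, not at 30 min or 1 h 40 min. All these differences subtract the same 0 h libraries. At 0 h RSM22 was itself higher in MMTT than in SS, by 0.58 on the log2 scale, and its lowest difference between the strains at any time was -0.54. MRP4, which overlaps a gene on the opposite strand, differed by -1.02 at 30 min, -0.92 by 1 h 10 min and -0.97 by 8 h 30 min. At 0 h MRP4 had a mean of 25.8 CPM per kb in SS and 41.2 in MMTT. MRPL7 differed by -0.73 at 1 h 40 min and -0.59 at 8 h 30 min. MRPL37 differed by 1.45 at 2 h 30 min and 1.88 at 8 h 30 min, the last time also giving MRPS17 at 1.29 and MRP8 at 0.79.

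At 8 h 30 min the values below 0 were those of MRP13 (-0.94), MRPL3 (-0.82), MRPL38 (-0.79), MRPL6 (-0.72), MRPS35 (-0.67), MRP7 (-0.62) and MRPL22 (-0.53), beside RSM22, MRP4 and MRPL7. MRPL3 encodes an RNase III-fold protein of the large subunit. Over all times together the interaction had adjusted p = 0.00043 for MRPL37 and adjusted p = 0.00041 for MRPL6. No group held more than 3 libraries, so single libraries were not examined for standing apart by a ratio of gaps.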

How the results depend on the processing

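The counts give few reads per gene (a median of 200), groups hold 2 or 3 libraries, and where leaving out a library left 1, its spread was assumed equal to that of the other groups. Of 658 re-fits of 39 named values, 584 kept their side of the threshold, 67 no longer passed, 5 newly passed and 2 reversed in direction. Both reversals were MRPL33 in MMTT with the length trend removed, -0.024 at 30 min and -0.043 at 2 h 30 min. All other re-fitted log2 values kept their direction. The interaction p-values of 5 genes, with 55 re-fits each, have no direction, and only their side of the threshold was compared. Re-fits in which RSM22, MRPL38 or MRP8 again did not pass the interaction count among the 584. The cause of the changes below was not tested.

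Genes passing, with the count as reported in parentheses, were as follows. With all 54 libraries SS against 0 h gave 11 at 45 min (17) and 9 at 1 h 10 min (14), MMTT against SS 7 at 1 h 40 min (12) and 9 at 8 h 30 min (14), the difference of changes 4 at 30 min (2), 0 by 3 h 50 min (1) and 4 by 5 h 40 min (1), and the interaction 0 (2). With DESeq2 the difference at 5 h 40 min gave 4 and the interaction 4. With no filter the difference gave 0 at 30 min and 1 at 1 h 10 min (2). With the length trend removed MMTT against 0 h gave 35 at 30 min (19), 27 at 45 min (16), 29 by 1 h 10 min (17), 32 by 2 h 30 min (19) and 31 by 5 h 40 min (17), MMTT against SS 19 at 30 min (33) and 10 at 45 min (16), the difference 1 at 30 min, 2 at 45 min, 4 by 1 h 10 min, 2 by 2 h 30 min, 2 by 3 h 50 min and 4 by 5 h 40 min, and the interaction 4. The replicate block moved none of these counts by over 1.5 times: MMTT against SS at 0 h gave 17 (17) and at 30 min 34 (33).

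Leaving out each library of the groups compared gave these ranges, in order of time. SS against 0 h: 3 to 5, 9 to 14, 9 to 13, 5 to 12, 12 to 19, 11 to 19, 8 to 15 and 11 to 14. MMTT against 0 h: 13 to 16, 14 to 23, 10 to 15, 14 to 20, 11 to 18, 26 to 33, 11 to 17 and 24 to 29. MMTT against SS from 0 h on: 3 to 13, 12 to 32, 4 to 30, 13 to 24, 5 to 12, 7 to 24, 5 to 10, 3 to 12 and 9 to 17. Difference of changes: 0 to 2, 0 to 12, 1 to 3, 0 to 1, 0 to 1, 0 to 2, 0 to 3 and 4 to 11. Interaction: 0 to 5. Genes with the motif were 65, and 52 with the C before it.

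Over all genes, the difference of changes at 3 h 50 min gave 58 calls with all 54 libraries and 261 with DESeq2, in place of 148, that at 5 h 40 min 441 with DESeq2, in place of 292, and the interaction 1593 with DESeq2, in place of 895. With the length trend removed the share of higher calls in the difference at 5 h 40 min was 43.4% in place of 31.5%.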
